A study of Mus musculus with 4 samples.

Results

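The 10 genes described here encode 6 cadherins (Cdh1, Cdh2, Cdh3, Cdh11, Cdh13 and Cdh17) and 4 catenins (Ctnna1, Ctnnb1, Ctnnd1 and Jup, which encodes plakoglobin). They were taken by exact match of the single gene symbol that the platform annotation gives a probe set, a group of short oligonucleotides that reads 1 transcript. This gave 23 of the 45101 probe sets on the array, and 10 of 18193 named genes. The set was chosen by known function and with the OGFRL1 against EGFP differences of these same arrays in view, that of Cdh17 among them. Their differences are therefore given as a description, with standard errors and without a p-value, and nothing is read from counts of calls among them.

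All 4 arrays came from regenerating liver of nude mice of the strain BALB/c nu/nu, a strain without mature T cells. Every mouse had been given carbon tetrachloride, a liver toxin, 23 times at 0.25 ml/kg, and then 1000000 human bone marrow mesenchymal stem cells by injection into the spleen. Part of the liver was removed on day 21, and the tissue was taken on day 8 after that operation. In the control group (n = 2 arrays) the human cells expressed EGFP, a green fluorescent protein, and in the other group (n = 2 arrays) they expressed OGFRL1. The labels give no age, and they leave unsaid whether each array is a separate mouse, so errors and p-values here cover the spread from array to array, which may in part be technical. The probe sets were designed for mouse transcripts, so no value here checks the human transgene.

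Cadherins are calcium-dependent adhesion proteins that bind cadherins of the neighbouring cell. The tail of a classical cadherin holds p120 catenin (Ctnnd1) and either beta-catenin (Ctnnb1) or plakoglobin, and alpha-catenin (Ctnna1) joins this complex to actin. Beta-catenin is also the transcriptional effector of Wnt signalling. Hepatocytes carry both E-cadherin (Cdh1) and N-cadherin (Cdh2). Cdh17, known as liver-intestine cadherin, has a short tail without the catenin-binding region and is best known from intestinal epithelium.

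Values are MAS5 signals in arbitrary units, scaled so that every array had the same trimmed mean. Log2 differences are OGFRL1 minus EGFP after a pseudocount of 3.51 was added to each signal, and they understate the change of dim genes. A gene was tested when its brightest probe set had a mean signal of 11.6 or more, which is where the middle probe set of the array lies. The median signal of an array lay between 11.6 and 12.5. Across the 11942 genes tested, limma found 61 past an adjusted p of 0.05, 43 higher and 18 lower in OGFRL1 livers, and the median log2 difference was 0.04. The spike-in controls were lower on the OGFRL1 arrays, with a mean log2 difference of -0.43 for the 4 Cre probe sets and -0.32 for the 14 of BioB, BioC and BioD. Scaling the arrays to equal spike-in signals moved the median of all genes to 0.38 and the calls to 1462 higher and 57 lower, while quantile normalization left 1 higher and 3 lower. A fit without 1 of the EGFP arrays has a single EGFP array, which is assumed to vary as the OGFRL1 pair does. That pair was the more alike (r = 0.984 over genes, against 0.972 for the EGFP pair), and the calls over all genes then numbered 619 without EGFP array 1 and 856 without EGFP array 2, so calls gained in these fits are no support for a gene.

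The signal of Cdh17, liver-intestine cadherin, was 13.7 on EGFP array 1, 1.93 on EGFP array 2, 70.8 on OGFRL1 array 1 and 95.0 on OGFRL1 array 2, and pairs of values below keep this order. Both OGFRL1 arrays were thus above both EGFP arrays, and the EGFP arrays differed from each other by more than the OGFRL1 arrays did on the log2 scale. The group means were 7.80 ± 8.29 (SD, n = 2) and 82.9 ± 17.1, and the log2 difference was 3.15 ± 0.54 (SE of the limma fit). On EGFP array 1 this signal lay at percentile 51.9 of all probe sets and on EGFP array 2 at percentile 18.0, against 73.9 and 77.2 on the OGFRL1 arrays. The transcript was therefore near or below the middle of the array in EGFP livers, and whether it was detected there is not known, as detection calls were not analysed here. Cdh17 passed the minimum through the OGFRL1 arrays, since its mean in EGFP livers was below it. The gene has 1 probe set, so no other probe set of it could be compared. Its log2 difference was 3.97 without EGFP array 1, 2.32 without EGFP array 2 and 2.19 with 4 times the pseudocount.

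Cdh1, which encodes the epithelial E-cadherin, was brighter and was also separated between the groups. It was at 332 and 371 in EGFP livers and at 737 and 591 in OGFRL1 livers, with each OGFRL1 array above both EGFP arrays. The means were 351 ± 27.5 (SD) and 664 ± 103, a ratio of 1.89, and the log2 difference was 0.91 ± 0.16. That difference lay between 0.75 and 1.06 with any of the 4 arrays left out. It was 1.25 with arrays scaled to equal spike-in signals, where the median of all genes shifted as well.

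Cdh2, the N-cadherin that hepatocytes also carry, showed no such separation. Its brighter probe set read 855 and 1163 in EGFP livers and 1022 and 822 in OGFRL1 livers, so the groups overlapped. The log2 difference was -0.12 ± 0.20. The second probe set read 466 and 553 against 535 and 419, with a log2 difference of -0.10 ± 0.18. Both probe sets thus gave a difference smaller than its standard error, and the sign of the brighter one turned to 0.23 under spike-in scaling, to 0.10 without EGFP array 2 and to 0.04 without OGFRL1 array 2.

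The ratio of Cdh1 to Cdh2 within an array does not change when an array is scaled by a single factor, apart from the pseudocount. On the log2 scale and set to a mean of 0 in EGFP livers, it was 0.14 and -0.14 in EGFP livers and 1.03 on each OGFRL1 array. The ratio of Cdh1 to Ctnnb1, set the same way, was -0.19 and 0.19 in EGFP livers and 1.13 and 0.80 in OGFRL1 livers. In neither ratio did the groups overlap. Cdh1 alone already separated them, and the set was chosen with these differences in view. The ratios therefore restate the difference of Cdh1 and add no support for it. Set the same way, the ratio of Cdh1 to Ctnnd1 was smaller, at 0.74 and 0.44 in OGFRL1 livers.

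Cdh3, which encodes P-cadherin, stayed below the minimum by its mean signal and was not tested. One of its probe sets read 3.001 and 4.37 in EGFP livers and 13.8 and 14.2 in OGFRL1 livers, a log2 difference of 1.29. The second read 6.30 and 2.72 against 0.90 and 0.57, a log2 difference of -0.88. The groups did not overlap in either probe set, and the directions were opposite, so these dim signals give no common direction for the gene. In RefSeq's annotation of the assembly GRCm38.p6, Cdh3 and Cdh1 are next to each other among protein-coding genes. The genes on the far sides of this pair, Zfp90 and Tango6, had log2 differences of 0.57 ± 0.45 (limma adjusted p = 0.619) and -0.08 ± 0.29 (adjusted p = 0.937). Neither neighbour passed the threshold. Next to Cdh17 lie Gem, which was below the minimum, and the phosphatase gene Pdp1, which had 0.48 ± 0.26 (adjusted p = 0.453).

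Cdh11, a cadherin of mesenchymal cells such as fibroblasts, was also below the minimum. Its brighter probe set read 11.3 and 8.12 in EGFP livers and 4.75 and 15.98 in OGFRL1 livers, and the OGFRL1 arrays enclosed the EGFP arrays. The other read 3.81 and 0.63 against 3.69 and 4.52 and overlapped too.

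Cdh13, the T-cadherin, which is held in the membrane by a lipid anchor and known from vessel walls, passed with a low signal. Its brightest probe set read 20.6 and 21.4 in EGFP livers and 19.0 and 23.4 in OGFRL1 livers, a log2 difference of 0.01 ± 0.28. The next read 12.6 and 21.6 against 17.6 and 20.2, with 0.16 ± 0.33. The EGFP values lay within the range of the OGFRL1 values for the first, and the reverse held for the second. The remaining pair of Cdh13 probe sets was below the minimum and pointed in opposite directions, with log2 differences of 0.62 and -0.85.

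**Figure D1:**
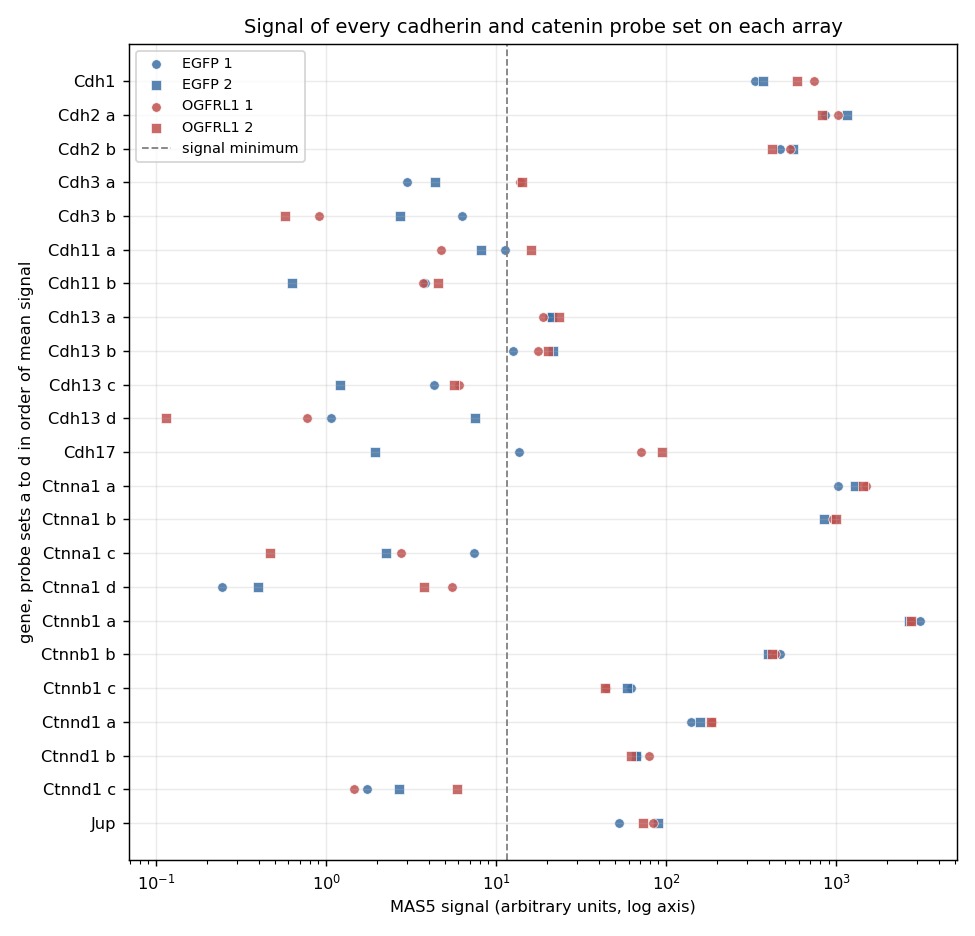
MAS5 signal (log axis, arbitrary units) of all 23 cadherin and catenin probe sets on the 4 arrays, with EGFP arrays in blue and OGFRL1 arrays in red (circle for array 1, square for array 2) and the signal minimum of 11.6 as a dashed line. The OGFRL1 points of Cdh17 (70.8 and 95.0) and Cdh1 (737 and 591) stand to the right of their EGFP points, while those of Cdh2 and the brightest Ctnnb1 probe set mix with them.

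Ctnnb1, which encodes beta-catenin, did not separate the groups by its brighter probe sets. The brightest read 3098 and 2659 in EGFP livers and 2742 and 2761 in OGFRL1 livers, with both OGFRL1 arrays inside the EGFP range. The log2 difference was -0.06 ± 0.14, and a second probe set at 465 and 397 against 435 and 419 gave -0.01 ± 0.15. The dimmest probe set read 61.9 and 58.7 against 44.3 and 43.8, so that both OGFRL1 arrays were below both EGFP arrays, with -0.42 ± 0.20. The probe sets of this gene thus disagreed, and which transcript forms each one reads was not analysed here. The sign of the brightest probe set also turned, to 0.09 under quantile normalization, 0.29 under spike-in scaling and 0.05 without EGFP array 1.

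Ctnna1, the alpha-catenin that links the complex to actin, had its brightest probe set at 1021 and 1281 in EGFP livers and at 1491 and 1439 in OGFRL1 livers. The groups did not overlap, and the log2 difference was 0.36 ± 0.15. This probe set carries the suffix that the manufacturer gives to sets whose probes may also bind other transcripts. The next one, without that suffix, read 986 and 847 against 955 and 991, overlapped between the groups and had 0.09 ± 0.14. The larger difference of Ctnna1 thus rested on the less specific probe set, and the 2 dimmest sets of the gene stayed below a signal of 8 on all arrays.

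Ctnnd1, the p120 catenin that keeps cadherins at the membrane, read 141 and 158 in EGFP livers and 187 and 185 in OGFRL1 livers by its brightest probe set. Here too the OGFRL1 arrays were both above the EGFP arrays, with a log2 difference of 0.31 ± 0.15. This probe set too carries a suffix of the manufacturer, one for sets whose probes are shared by several transcripts. A second probe set, without such a suffix, read 67.0 and 66.1 against 79.2 and 62.1, with 0.07 ± 0.20, and its groups overlapped.

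Jup, the plakoglobin gene, whose product is shared by adherens junctions and desmosomes, has 1 probe set on the array, with the same suffix as the brighter one of Ctnnd1. It read 52.9 and 89.0 in EGFP livers and 83.4 and 73.0 in OGFRL1 livers, and the EGFP arrays enclosed the OGFRL1 arrays. The log2 difference was 0.18 ± 0.27, and it was -0.18 without EGFP array 1 and 0.53 without EGFP array 2.

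Of the 10 genes, 8 passed the signal minimum, and 0 of these were past the threshold of the limma fit over all genes, where 0.511% were called. Without adjustment, 2 of the 8 had a p under 0.05, against 15.3% of all genes. In 4 of the 8 genes (Cdh1, Cdh17, Ctnna1 and Ctnnd1) both OGFRL1 arrays were above both EGFP arrays, as in 27% of all genes tested, and in 0 they were below, as in 20.5%. Over the 14 probe sets that passed, 4 were separated upward and 1 downward, against 25.9% and 20% of all named probe sets that passed. The count of 0 past the threshold became 1 with 4 times the pseudocount, where 94 of 11942 genes were called. It became 2 under spike-in scaling, where 1519 of 11967 were called. A block of replicate numbers crossed between the groups, added after the data were seen, also gave 2, where 934 of 11942 were called. With a single EGFP array the count rose too, as the calls over all genes did. None of these counts is evidence about the set, since the genes were proposed with this comparison known and Cdh17 passed the minimum through the OGFRL1 arrays.

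**Figure D2:**
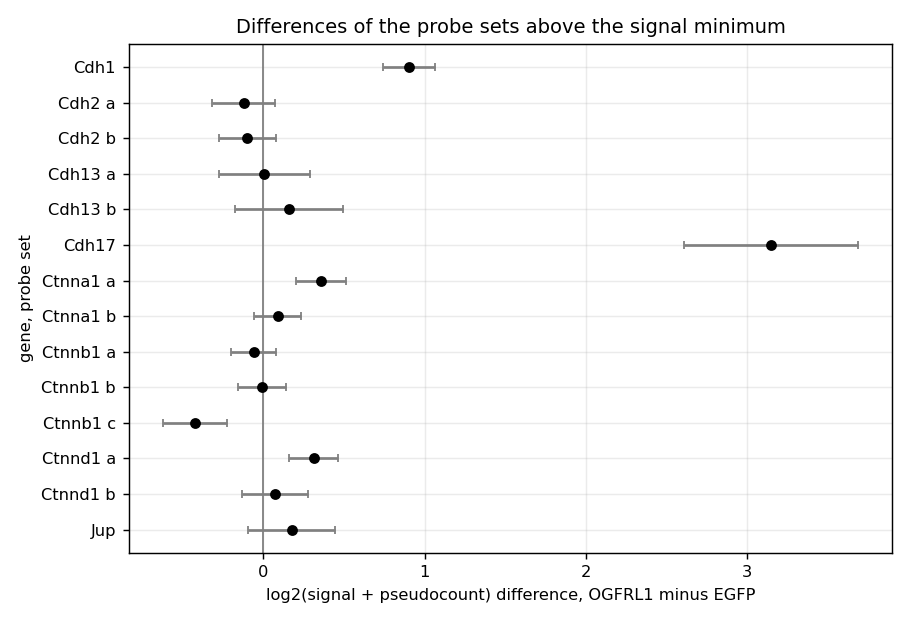
Log2 difference (OGFRL1 minus EGFP, with the standard error of the limma fit as bars) of the 14 cadherin and catenin probe sets above the signal minimum, lettered within a gene by mean signal. Cdh17 stands at 3.15 with the longest bar, Cdh1 at 0.91, and the other 12 lie between -0.42 and 0.36.

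Markers of the cell types that could carry these transcripts were read beside them. Bulk signals cannot tell fewer cells of a type from less RNA per cell. The 9 hepatocyte markers were all above the minimum, as the tissue label requires, and their summed signal was 63500 to 81819 in EGFP livers and 48828 to 52263 in OGFRL1 livers. In 8 of the 9 both OGFRL1 arrays were below both EGFP arrays, against 20.5% of all genes tested. The 7 cholangiocyte markers summed to 237 to 357 and 623 to 834, of which Prom1, a surface protein of progenitor cells, made up 108 to 223 and 510.1 to 720. Epcam, an epithelial adhesion protein of bile ducts, read 37.1 and 38.3 against 31.4 and 32.8, and Cftr was below the minimum on all arrays. Apart from Prom1, then, the bile duct markers were dim, and Krt7, Krt19 and Sox9 overlapped between the groups, while Epcam and Muc1 were lower on both OGFRL1 arrays. The part of hepatocytes or bile duct cells in the Cdh1 values was not tested.

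Beside Cdh17 the markers of intestine, pancreas and B cells were read, as tissues from which RNA could enter a liver sample. The 13 intestinal markers summed to 1409 to 1793 in EGFP livers and 1447 to 1494 in OGFRL1 livers, ranges that overlap. Fabp2, an intestinal fatty acid binding protein, and Cdhr5, a cadherin of microvilli, made up most of these sums. Cdx1, Vil1, Gpa33, Muc2 and Muc13 were below the minimum on all 4 arrays. Cdx2, the intestinal homeobox factor, read 23.4 and 5.30 in EGFP livers and 3.79 and 8.20 in OGFRL1 livers, and was above the minimum on EGFP array 1 alone. Of the 13 markers, 1 (Cdhr2) was separated upward and 2 downward. The shares over all genes tested were 27% and 20.5%, but these and the next counts also include markers below the minimum. The 9 acinar markers summed to 226 to 234 and 217 to 226, and 5 of them, among them Cpa1, Ctrb1 and the acinar factor Ptf1a, were below the minimum on all arrays. Among the acinar markers 2 were separated upward (Prss2 and the dim Cpa1) and 1 downward. Of the 7 B cell markers, Cd79a read at most 0.98 on any array, and the sums were 66.7 to 111 and 84.7 to 104. Cd79a was separated upward on these dim values, and 1 B cell marker downward. Among the markers tested, 1 of 5 intestinal markers was separated upward and 1 downward. For acinar markers this was 1 and 0 of 3, and for B cell markers 0 and 0 of 3. The part of such cells in the Cdh17 values was not tested.

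Vascular and mesenchymal markers were read beside Cdh2, Cdh11 and Cdh13. The 10 endothelial markers summed to 1850 to 1930 and 1728 to 1802, with 1 of 10 separated upward and 3 downward. The 10 markers of stellate cells and myofibroblasts summed to 1653 to 1711 and 2375 to 3376, with 8 of 10 separated upward and 1, Lrat, downward, against 27% and 20.5% of all genes tested. Cdh11 and Cdh13 showed no separation in the same direction in their brightest probe sets. Portal fibroblast markers (8 matched) summed to 165 to 179 and 219 to 242, with 4 separated upward, 1 downward and Gli1 and Mfap4 below the minimum on all arrays. Mesothelial markers (8 matched) summed to 7169 to 10344 and 9493 to 11298, with 4 separated upward, Krt18 among them. Nearly all of the sums was Krt8 and Krt18. The sums therefore describe these 2 keratins, and which cells their signal came from was not tested. Of the others, Upk3b read at most 1.85 on 3 arrays and 37.0 on OGFRL1 array 2, where Msln was highest too (21.1). Upk1b was lowest on that array (11.8), and both Upk1b and Wt1 overlapped between the groups. Gpm6a (6.82 and 12.9 against 23.8 and 44.9) and Lrrn4 were higher on both OGFRL1 arrays. The part of these cells in the cadherin values was not tested.

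The rest of the junction was examined through lists of genes that are not among the 10. In the list of other cadherin superfamily genes, 10 of 31 matched genes passed the minimum and 0 passed the limma threshold. At an unadjusted p under 0.05 there were 3. Over all genes 15.3% lay there, the share to set beside the counts of the lists below. Of the 10 genes, 5 were above and 5 below 0. Their median was 0.00, and -0.30 with the mean over the probe sets of a gene. Fat1, a giant protocadherin, read 385 and 286 in EGFP livers and 475 and 562 in OGFRL1 livers (0.63 ± 0.19, adjusted p = 0.192). Dchs1, a cadherin of planar polarity, read 23.5 and 22.9 against 10.4 and 10.6 (-0.93 ± 0.31, adjusted p = 0.225), and it passed the minimum through the EGFP arrays. Celsr1 had 0.55 ± 0.21 and the microvillar Cdhr2 0.59 ± 0.34. The 21 below the minimum included Cdh4, Cdh6 and Cdh16. Fat1 was past the threshold without EGFP array 1 (adjusted p = 0.0236), and Cdhr5 was past it, as lower in OGFRL1 livers, without EGFP array 2. Both of these fits have a single EGFP array.

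Relatives of the catenins numbered 5 tested of 7, with 0 past the threshold (0 at an unadjusted p under 0.05) and a median of 0.20. That median was 0.06 with the mean over the probe sets of a gene and -0.01 over all named probe sets. Ctnnal1, an alpha-catenin-like protein, had 0.59 ± 0.26, Ctnnd2 -0.49 ± 0.37, Ctnnbl1 0.20 ± 0.17 and Arvcf, a p120 relative, 0.22 ± 0.26. The probe sets of Ctnnal1 averaged 0.26, those of Ctnnd2 -0.63 and those of Arvcf 0.06. Ctnnd2, with means of 14.5 in EGFP and 9.34 in OGFRL1 livers, passed the minimum through the EGFP arrays. Desmosome genes, which include the cadherins Dsg2 and Dsc2 and the plaque proteins that plakoglobin binds, had a median of 0.05 over 10 of 14 matched genes, with 0 past the threshold and 1 at an unadjusted p under 0.05. That list held Ppl (periplakin) at 0.46 ± 0.16, Pkp3 at -0.53 ± 0.33, Pkp2 at 0.19 ± 0.14 and Evpl at -0.25 ± 0.38, and the sign of Evpl turned to 0.025 under spike-in scaling and to 0.022 without OGFRL1 array 1. As for Jup, neither direction prevailed among them.

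Adaptors of the adherens junction had 14 of 19 tested genes above 0 and a median of 0.18, with 0 past the limma threshold and 4 at an unadjusted p under 0.05. Over all genes tested 6634 of 11942 were above 0. Ajuba, a LIM protein that binds alpha-catenin, read 123 and 89.2 in EGFP livers and 215 and 206 in OGFRL1 livers (0.98 ± 0.19, adjusted p = 0.0906). Shroom3, an organiser of apical actomyosin, read 60.7 and 66.0 against 124 and 95.5 (0.75 ± 0.20, adjusted p = 0.157). The actin crosslinker Actn1 had 0.45 ± 0.14, and Plekha7, which binds p120 catenin, had 0.58 ± 0.21, while their probe sets averaged 0.32 and 0.39. In 6 of the 19 genes (these 4, Afdn and Actn4) both OGFRL1 arrays were above both EGFP arrays, and in 4 (Nectin2, Nectin3, Lima1 and Zyx) they were below, against 27% and 20.5% of all genes tested. The median of the list was 0.0038 without EGFP array 2 and 0.082 under quantile normalization. Ajuba was past the threshold in the fits with a single EGFP array (adjusted p = 0.00763 without EGFP array 1 and 0.0417 without EGFP array 2), and not without either OGFRL1 array.

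Tight junction genes lay evenly on both sides, with 9 of 18 above 0, a median of 0.03, 0 past the threshold and 5 at an unadjusted p under 0.05. Cldn12 read 931 and 1094 in EGFP livers and 677 and 661 in OGFRL1 livers (-0.59 ± 0.14, adjusted p = 0.127), and was past the threshold without EGFP array 1 (adjusted p = 0.021). The pericentral claudin Cldn2 read 404 and 430.4 against 306 and 334 (-0.38 ± 0.14), the polarity gene Pard3 had -0.48 ± 0.17, and Cldn1 had 0.49 ± 0.18. Averaged over the probe sets of a gene, Cldn2 was at -0.11, Pard3 at -0.20, Cldn1 at 0.28 and Cldn12 at -0.41. Claudins therefore stood on both sides of 0.

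Genes that cleave or turn over cadherins had a median of 0.00 over 16 tested, with 0 past the threshold and 2 at an unadjusted p under 0.05. Adam10, the sheddase of E- and N-cadherin, read 482 and 597 against 731 and 700 (0.41 ± 0.15, adjusted p = 0.273). It was past the threshold without EGFP array 2 (adjusted p = 0.0496), but its probe sets averaged -0.065. The kinase gene Src had -0.60 ± 0.24, while its probe sets averaged 0.16. The gamma-secretase subunits Psenen (-0.25 ± 0.12) and Psen2 (-0.23 ± 0.16) turned to 0.10 and 0.12 under spike-in scaling.

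The signalling side of beta-catenin was read through 2 lists. Its destruction complex and TCF partners had 9 of 17 genes above 0, a median of 0.02, and 0 past the threshold (0 at an unadjusted p under 0.05). Gsk3b had 0.31 ± 0.14 and Csnk1a1, the priming kinase, 0.25 ± 0.14, while their probe sets averaged 0.12 and 0.011. The coactivators Pygo2 (-0.26 ± 0.19) and Bcl9l (-0.29 ± 0.21) turned to 0.075 and 0.052 under spike-in scaling. Targets of beta-catenin in liver had 11 of 16 below 0 and a median of -0.19, with 0 past the threshold and 5 at an unadjusted p under 0.05, against 15.3% of all genes. Cyp2e1, a pericentral P450, read 11181 and 9540.1 in EGFP livers and 5802 and 6137 in OGFRL1 livers (-0.79 ± 0.15, adjusted p = 0.0824). Under quantile normalization Cyp2e1 was closer to 0, at -0.40 ± 0.10. With a single EGFP array it was past the threshold (adjusted p = 0.0128 without EGFP array 1 and 0.00721 without EGFP array 2). Gulo had -0.59 ± 0.15 and was past it without EGFP array 2 (adjusted p = 0.0175), and Slc1a2 and the ammonium transporter Rhbg both had -0.83. Hepatocyte markers, which the target genes overlap in cell type, had a median of -0.49 and the spike-ins means of -0.43 and -0.32. Under spike-in scaling the median of this list was 0.16, and it was 0.04 without EGFP array 1, so its side of 0 was not fixed.

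Regulators of the epithelial state, several of which act on the Cdh1 promoter, had 6 of 15 genes above the minimum, a median of 0.37, 0 past the threshold and 2 at an unadjusted p under 0.05. Snai2, a repressor of Cdh1 in epithelial-mesenchymal transition, read 97.4 and 72.5 in EGFP livers and 129 and 155 in OGFRL1 livers (0.73 ± 0.21, adjusted p = 0.179, and adjusted p = 0.0393 without EGFP array 1). It was thus high on the same arrays as Cdh1. The epithelial factor Grhl1 read 8.996 and 7.92 against 19.5 and 25.2 (1.10 ± 0.335) and passed the minimum through the OGFRL1 arrays. The median of the list was 0.16 with no filter and 0.13 with the stricter filter. Esrp2, a splicing factor of epithelia, had 0.26 ± 0.17, and Grhl2 had 0.48 ± 0.41, while its probe sets averaged -0.23. Snai1, Twist1 and Twist2 were below the minimum, and the repressors Zeb1 and Zeb2 were within 0.06 of 0.

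**Figure D3:**
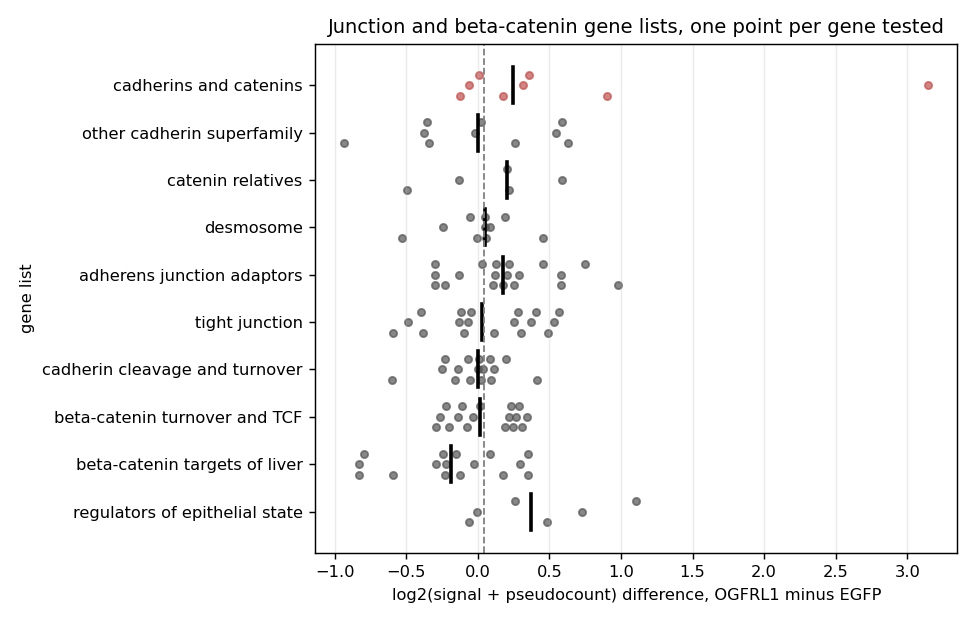
Log2 difference (OGFRL1 minus EGFP) of each tested gene in the cadherin and catenin set (red) and in 9 lists of junction and beta-catenin genes (grey), with list medians as black bars and the median of all genes, 0.04, as a dashed line. List medians run from -0.19 to 0.37, and the rightmost point is Cdh17 at 3.15, a gene chosen with this difference in view.

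The genes whose 4 values were closest to those of Cdh17, each centred on its own mean, were Ube2c, Ska1, Cdc25c, Slpi and Sult1e1. Their Euclidean distances over 4 arrays ran from 1.01 to 1.09 on the log2 scale. The median over all genes was 3.34. Genes that hardly vary over the arrays also lie far from Cdh17, so this median is no benchmark of likeness. Cdh17 itself stood at -0.74 and -2.40 in EGFP livers and at 1.37 and 1.78 in OGFRL1 livers. Ube2c, a ubiquitin-conjugating enzyme of mitotic exit, stood at -0.30, -1.84, 0.79 and 1.35 in the same order. Ska1, of the kinetochore, and Cdc25c, a phosphatase of mitotic entry, had their lowest value on EGFP array 2 as well. Slpi is a secreted protease inhibitor, and Sult1e1, the oestrogen sulfotransferase, had a log2 difference of 3.94. Ska1 and Cdc25c, like Cdh17, passed the minimum through the OGFRL1 arrays. In all 6 genes EGFP array 2 was below EGFP array 1, and both were below the OGFRL1 arrays. With 4 arrays this likeness is a description and carries no test.

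**Figure D4:**
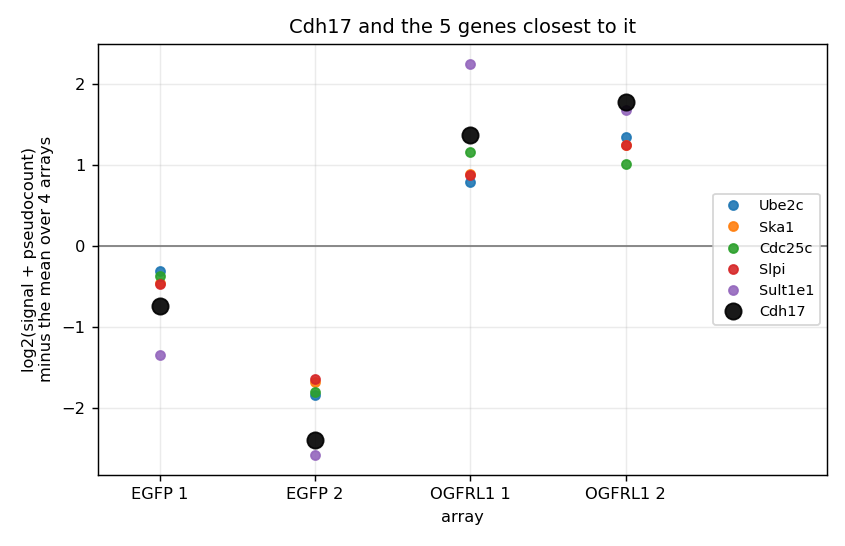
Log2(signal + pseudocount) of Cdh17 (large black points) and of the 5 genes closest to it on the 4 arrays, each gene minus its mean over the arrays. Genes with provisional symbols were left out of the choice. All 6 genes are lowest on EGFP array 2, next on EGFP array 1 and above 0 on both OGFRL1 arrays. This order follows from the choice by closeness to Cdh17.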

How the data were processed

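The authors deposited linear MAS5 intensities, per the submitters' processing notes, and the MAS5 version and the detection calls are not given in the sources used here. Per the labels, 100 ng of RNA was labelled for each array. The log2 of signal plus 3.51 (percentile 25 of the table) was taken, the brightest probe set by mean stood for a gene, and genes with a mean of 11.6 or more were fitted with limma 3.58.1 in R 4.3.3 (lmFit, eBayes with an intensity trend, Benjamini-Hochberg over all genes, 2-sided). Residual degrees of freedom were 2, prior 4.48. Errors are SD for levels and the SE of the fit for differences. The number of arrays limits the precision.

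The 10 genes, the lists and the tests were chosen with earlier results of these data known. Named genes are the 10, up to 4 per list (first those past the threshold, then by absolute moderated t) and marker genes by list. The 5 nearest to Cdh17 are named as well, with provisional symbols left out. Other genes named (Afdn, Actn4, Nectin2, Nectin3, Lima1, Zyx, Zeb1, Zeb2, genes below the minimum and genomic neighbours) were picked after their values were seen. Names came from the platform annotation, where 34945 probe sets had 1 symbol, 932 several and 9160 none; 34741 had a gene identifier in the RefSeq table. On 5 simulated data sets of 11942 genes for OGFRL1 against EGFP, the fit called 24.8% of genes shifted by 1 on the log2 scale and 80.4% of genes shifted by 2. Alternatives covered normalization, pseudocount, filter, probe set choice, variance model, pairing and each array left out. Tables were made in pandas 2.3.3 under Python 3.11.15, and figures in matplotlib 3.10.9.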

Additional observations from a re-analysis of the deposited data

How the results depend on the processing

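The 61 genes past the threshold became 4 under quantile normalization, 1519 with arrays scaled to equal spike-in signals, 94 with 4 times the pseudocount, 21 with a stricter filter, 13 with the mean over the probe sets of a gene, and 0 with no filter or with no intensity trend (limma, with 2179 and 1654 at an unadjusted p under 0.05). With 1 array left out the count ran from 0 to 856. It was 619 without EGFP 1, 856 without EGFP 2, 0 without OGFRL1 1 and 2 without OGFRL1 2, with 922 and 744 at an unadjusted p under 0.05 in the last pair. The replicate number as a block gave 59, of which 38 were among the 61. The deviations of same-numbered arrays correlated at -0.28 over genes, and a block with crossed numbers, added after this was seen, gave 934. Nothing in the labels ties equal numbers to a common animal or day. The causes of these differences were not tested.

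Cdh17 was at 2.19 with 4 times the pseudocount and between 2.32 and 3.97 with 1 array left out, and the stricter filter removed it. Cdh1, Cdh17, Ctnna1 and Ctnnd1 kept their sign in every alternative that tested them, and Cdh2, Cdh13, Ctnnb1 and Jup did not. Several lists with 0 in the main fit changed under spike-in scaling, where 1519 of 11967 genes tested were past the threshold. Past it were 3 other cadherin superfamily genes, 1 desmosome gene, 4 adherens junction adaptors and 2 tight junction genes. So were 1 gene of cadherin cleavage and 2 regulators of the epithelial state. Under this scaling Evpl was at 0.025, Psenen at 0.10, Psen2 at 0.12, Pygo2 at 0.075 and Bcl9l at 0.052. With the mean over probe sets Adam10 was at -0.065, Src at 0.16 and Grhl2 at -0.23. With 1 array left out the counts ran from 0 to 1 for other cadherins, adaptors, tight junction, cleavage and epithelial regulators and from 0 to 2 for beta-catenin targets, and Evpl ran from -0.51 to 0.022, the last without OGFRL1 1. Dim signals and 2 arrays per group limit all of these values.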
